A study of Saccharomyces cerevisiae with 7 samples.

Results

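The 8 mRNAs described here encode membrane and secreted proteins of budding yeast, Saccharomyces cerevisiae, whose transcripts are known from earlier work to be carried into the bud. They are MID2 (YLR332W), WSC2 (YNL283C), IST2 (YBR086C), TCB3 (YML072C), TPO1 (YLL028W), EGT2 (YNL327W), SRL1 (YOR247W) and CPS1 (YJL172W). They were chosen by gene name. All 8 have a transcript entry in the deposited annotation, among 3000 mRNAs and 3196 transcripts in all. A 5' UTR is listed for 7 of the 8 and a 3' UTR for the same 7. SRL1 is listed as a coding region alone.

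The study probed RNA secondary structure across the yeast transcriptome. RNA of log-phase cells grown at 23 °C was folded in vitro and cut with RNase V1, which cleaves paired bases (4 libraries), or with nuclease S1, which cleaves unpaired bases (3 libraries). Both groups came from the same kind of RNA, which the source field calls polyA RNA and the titles call total RNA; the labels give no strain or genotype. Values per library were not analysed here, so depth is unknown, no replicate error can be given, and no comparison between the nucleases was made. What follows describes the annotated transcripts of the 8 mRNAs, with lengths in nucleotides (nt), 1 value per gene and no test.

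Yeast mRNAs reach the bud on a particle in which the RNA-binding protein She2 and the adaptor She3 tie the transcript to the type V myosin Myo4, a motor that walks along actin cables. Translation of some of them is held back on the way by proteins such as Khd1 (gene HEK2) and Puf6. ASH1, whose product acts in the daughter cell nucleus, is the best studied cargo, and several of the others encode proteins of the bud surface. Sequence features proposed to act in such transport or repression lie in coding regions as well as in UTRs. Among them are a degenerate heptamer found near She2-dependent localisation elements, runs of triplets that begin with C (CNN), which Khd1 binds, and runs of triplets that end in a pyrimidine (NNY, with Y for C or T), which are frequent in mRNAs of secreted and membrane proteins.

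The longest CNN runs of the 8 coding sequences lay in WSC2, MID2 and IST2. The starts of these runs are printed because they are the stretches in which these mRNAs stand far along the distribution of all coding sequences. They were read 5' to 3' on the coding strand of the R64 reference genome, with the C of each triplet in capitals.
WSC2, chr14:106128-106157, minus strand: CaaCtaCttCctCctCttCttCatCctCtt
MID2, chr12:791160-791189, plus strand: CttCtgCacCttCaaCctCctCcaCacCat
IST2, chr2:420333-420362, minus strand: CagCccCacCatCatCatCacCacCacCgc

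The starts of the longest NNY runs of MID2 and WSC2 are printed in the same way, with the pyrimidine of each triplet in capitals. The MID2 run overlaps its CNN run in the same phase, and the WSC2 run overlaps the end of its CNN run in another phase.
MID2, chr12:791092-791121, plus strand: aaCgtCaaCatCatCttCatCctCacTgtC
WSC2, chr14:106087-106116, minus strand: tcTacTacTtcTacTacTtcTacTacCtcT

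The heptamer searched was A or G, then CGAA, then A, G or T, then A. The windows below show it in capitals with up to 10 bases on each side, for IST2, which held the most matches, and for CPS1, whose last match ends shortly before the stop codon that closes the window. The windows of the IST2 matches at nt 2420 and 2429 overlap.
IST2 at nt 1645, chr2:421381-421407, minus strand: ttccatccatACGAATAaagcttggta
IST2 at nt 1883, chr2:421143-421169, minus strand: aattcgaataACGAAAAagaactagtt
IST2 at nt 2420, chr2:420606-420632, minus strand: gttactggtgGCGAAAAtaacgaaaat
IST2 at nt 2429, chr2:420597-420623, minus strand: ggcgaaaataACGAAAAtacccaggcc
IST2 at nt 2578, chr2:420448-420474, minus strand: tgaagtaagcACGAAAAatggcccatc
CPS1 at nt 1306, chr10:99032-99058, plus strand: catagaatatGCGAAAAagattgctga
CPS1 at nt 1511, chr10:99237-99263, plus strand: ctacaaaacaACGAAGAgttctatgtg
CPS1 at nt 1718, chr10:99444-99467, plus strand: gttaatgttaACGAATAcgcttaa

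The leaders of these mRNAs ran from very long to very short. In order, the listed 5' UTR was 423 nt in MID2, 247 nt in IST2, 157 nt in TCB3, 107 nt in TPO1, 77 nt in WSC2, 33 nt in EGT2 and 26 nt in CPS1. The median of the 7 was 107 nt, against 50 nt over the 2679 mRNAs with a listed 5' UTR, whose quartiles were 30 and 94.5 nt. The leader exceeded the median of all mRNAs in 5 of the 7, where 49.8% of all mRNAs do, and the upper quartile in 4 of the 7, where 25% do. Those above the upper quartile were MID2, IST2, TCB3 and TPO1, and CPS1 lay below the lower quartile.

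At the other end the spread was smaller. The listed 3' UTR was 194 nt in TPO1, 191 nt in MID2, 141 nt in CPS1, 136 nt in TCB3, 119 nt in EGT2, 95 nt in IST2 and 30 nt in WSC2. Their median was 136 nt, against 106 nt over the 2882 mRNAs with a listed 3' UTR, whose quartiles were 72 and 155 nt. The 3' UTR was longer than the median in 5 of the 7 (49.8% of all mRNAs) and longer than the upper quartile in 2 of the 7, TPO1 and MID2 (24.9% of all mRNAs). WSC2 was the single member below the lower quartile.

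The order of the 7 by leader length differed from their order by 3' UTR length. The 5' UTR was longer than the 3' UTR of the same mRNA in MID2, IST2, WSC2 and TCB3, that is in 4 of 7, whereas 24.6% of the 2674 mRNAs with both UTRs showed that order. The median log2 ratio of the 5' to the 3' UTR length was 0.21 over the 7 and -1.04 over all mRNAs with both. The linear ratio was 2.6 in IST2, 2.57 in WSC2, 2.21 in MID2 and 1.15 in TCB3, and below 1 in TPO1 (0.552), EGT2 (0.277) and CPS1 (0.184).

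**Figure D1:**
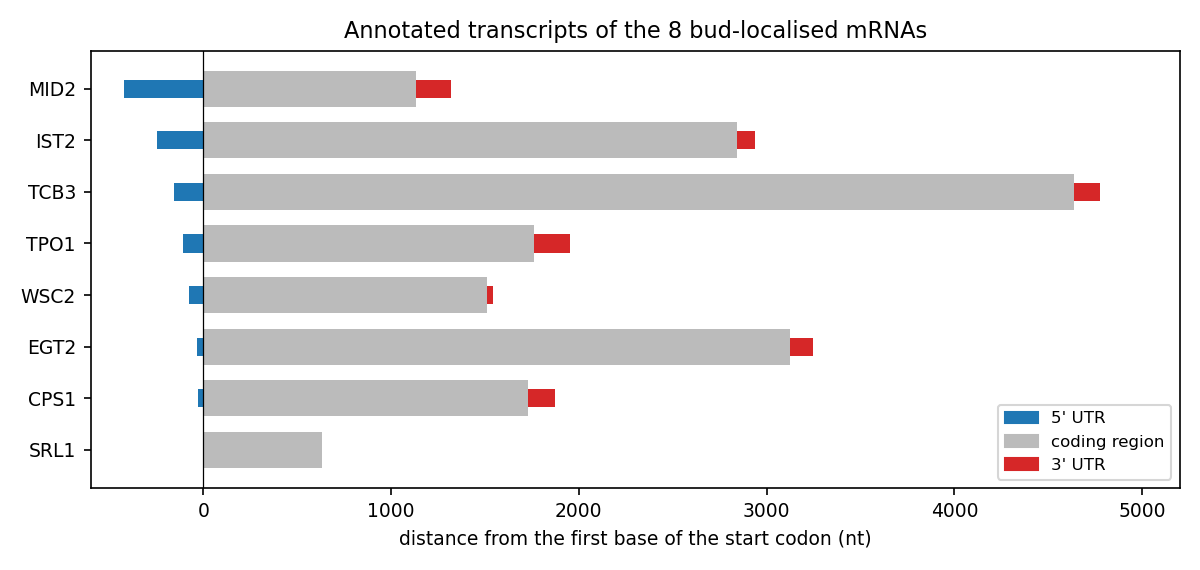
Annotated transcripts of the 8 mRNAs, drawn to scale along a horizontal axis of distance from the first base of the start codon (nt), with the 5' UTR in blue, the coding region in grey and the 3' UTR in red, ordered by 5' UTR length. MID2 at the top has a leader of 423 nt, CPS1 one of 26 nt, and SRL1 at the bottom has no listed UTR.

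**Figure D2:**
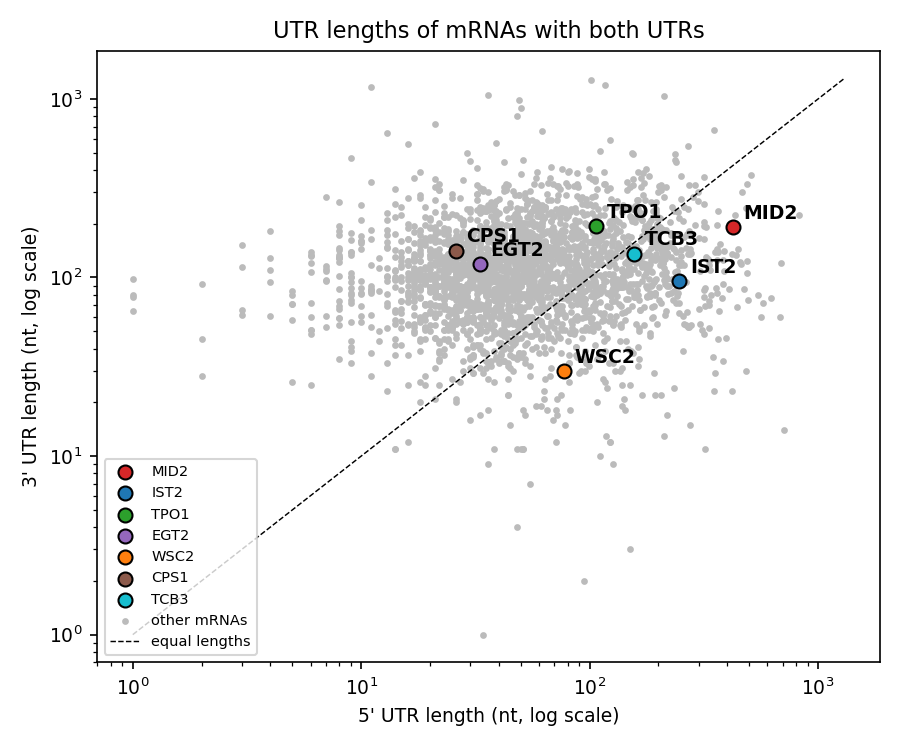
Length of the 5' UTR (horizontal, nt, log scale) against that of the 3' UTR (vertical, nt, log scale), with the 7 members in colour, the other mRNAs with both UTRs in grey and a dashed line of equal lengths. MID2, IST2, WSC2 and TCB3 lie to the right of the line, and TPO1, EGT2 and CPS1 to its left.

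MID2 and WSC2 encode cell surface sensors of wall stress, single-pass proteins with a serine- and threonine-rich outer part that signal through Rho1 and Pkc1 in the cell wall integrity pathway. MID2 is on the plus strand of chromosome 12, with a transcript at 790253 to 791997 in the annotation's coordinates and a coding region of 1131 nt (790676 to 791806, 376 codons). Its 5' UTR (790253 to 790675) ranked 24 of 2679 from the longest. Of the other mRNAs, 99.1% had a shorter one (95% Wilson interval 98.7 to 99.4, over genes), and the neighbours in that order were 421 and 433 nt long. The leader made up 24.2% of the transcript, while the coding region was close to the median, with 52.7% of other mRNAs shorter. Among the 200 mRNAs nearest to it in coding length, 99.5% had a shorter 5' UTR. The 3' UTR (791807 to 791997) ranked 426 of 2882, with 85.2% of others shorter (83.8 to 86.4).

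WSC2 had the opposite 3' end. It is on the minus strand of chromosome 14, with a transcript at 105154 to 106772 and a coding region of 1512 nt (105184 to 106695, 503 codons). Its 3' UTR of 30 nt (105154 to 105183) ranked 2782 of 2882 from the longest, and 3.35% of other mRNAs had a shorter one (2.75 to 4.07). The neighbours in that order were 29 and 31 nt long. Its 5' UTR of 77 nt (106696 to 106772) was longer than that of 68.4% of other mRNAs (66.6 to 70.1). The related sensor SLG1 (also called WSC1), whose protein was 38.5% identical to Wsc2, had listed UTRs of 211 and 283 nt at the 5' and 3' ends, both longer than those of WSC2.

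The transcripts of both tether proteins, IST2 and TCB3, had leaders above the upper quartile and long coding regions. Ist2, a protein of the anoctamin family, and Tcb3, a tricalbin with C2 domains, hold the endoplasmic reticulum against the plasma membrane. IST2 lies on the minus strand of chromosome 2, at 420100 to 423282, with a coding region of 2841 nt (420195 to 423035, 946 codons) that was longer than 94.1% of the others. Its 5' UTR (423036 to 423282) ranked 113 of 2679, and 95.8% of other mRNAs had a shorter one (95.0 to 96.5). Its 3' UTR of 95 nt (420100 to 420194) was below the median, with 41.9% shorter (40.1 to 43.7). Of the 200 mRNAs nearest in coding length, 95% had a shorter 5' UTR and 42.5% a shorter 3' UTR, so the order of IST2 was nearly the same among mRNAs of its size.

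TCB3 has the longest coding region of the 8, 4638 nt or 1545 codons, ranked 28 of 3000. It lies on the minus strand of chromosome 13 (transcript 124594 to 129524, coding region 124730 to 129367). Its 5' UTR of 157 nt (129368 to 129524) was longer than that of 88.0% of the others (86.7 to 89.2), and that share was 78.5% among the 200 mRNAs nearest in coding length. As TCB3 ranked 28 of 3000, most of those 200 had shorter coding regions, here and in later comparisons of TCB3 by coding length. Its 3' UTR of 136 nt (124594 to 124729) was longer than that of 67.1% (65.3 to 68.8). The related tricalbins were close in leader length, with 187 nt in TCB2 and 181 nt in TCB1, and their proteins were 30.2% and 29.4% identical to Tcb3.

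TPO1 encodes a polyamine transporter of the plasma membrane. It lies on the plus strand of chromosome 12 (transcript 84696 to 86757, coding region 84803 to 86563, 1761 nt, 586 codons). Its 3' UTR (86564 to 86757) was the longest of the 7, with 85.5% of other mRNAs shorter (84.2 to 86.8), just ahead of MID2. Its 5' UTR of 107 nt (84696 to 84802) was longer than that of 79.0% of the others (77.4 to 80.5). Of its relatives in the same transporter family, TPO3 had UTRs of 315 and 195 nt and TPO4 of 96 and 114 nt, at protein identities of 32.2% and 34.6%. TPO2 (32.5% identity) was not analysed here for UTRs.

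EGT2 and SRL1 encode proteins of the cell wall. Egt2 is a glycosylphosphatidylinositol-anchored protein of cell separation after cytokinesis, and Srl1 is a mannoprotein. EGT2 lies on the plus strand of chromosome 14 (transcript 24014 to 27291) with a coding region of 3126 nt (24047 to 27172, 1041 codons), longer than that of 95.7% of other mRNAs. Its 5' UTR of 33 nt (24014 to 24046) was longer than that of 29.1% of the others (27.4 to 30.8). Its 3' UTR of 119 nt (27173 to 27291) was longer than that of 57.3% (55.5 to 59.1). SRL1 lies on the plus strand of chromosome 15 (797677 to 798309) and is the shortest of the 8, with 633 nt and 210 codons. Its coding region was longer than that of 23.6% of all other mRNAs, and SVS1, whose protein was 45.7% identical to Srl1, had UTRs of 64 and 242 nt.

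CPS1 encodes carboxypeptidase S, a protease that is made as a membrane-bound precursor and released into the vacuole. It lies on the plus strand of chromosome 10 (transcript 97705 to 99602, coding region 97731 to 99461, 1731 nt, 576 codons). Its 5' UTR of 26 nt (97705 to 97730) was the shortest of the 7, with 19.3% of other mRNAs shorter (17.8 to 20.8). Its 3' UTR of 141 nt (99462 to 99602) was longer than that of 69.7% of the others (68.0 to 71.3).

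Each of the 8 coding regions is a single exon. As a group they were long: the median was 1746 nt, against 1080 nt over all 3000 mRNAs, and 7 of the 8 exceeded that median (49.9% of all mRNAs do), with SRL1 below it. Among the 200 mRNAs nearest to each in coding length, the share with a shorter 5' UTR was 58% for WSC2, 15.25% for EGT2, 14% for CPS1 and 74.25% for TPO1.

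Of the longest leaders, that of IST2 held an upstream start codon and that of MID2 held none. An ATG in the leader can start translation before the main reading frame and so lower its output. The sequence upstream of each R64 start codon, over the listed leader length, held an ATG in 1 of the 7, IST2, against 15.2% of the 2678 mRNAs for which it could be read. The count was thus near the share over all mRNAs, which rests mostly on short leaders.

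MID2 had no ATG in 423 nt. Of the 24 mRNAs with a 5' UTR at least as long, MID2 included, 5 had none (20.8%), and the median was 6. The other 4 were BRE5 (712 nt), RSP5 (508 nt), PPH21 (485 nt) and CLG1 (464 nt). Among the 50 mRNAs nearest in leader length, which spanned 324 to 508 nt, 14 had none (28%) and the mean was 4.68. At 300 nt or more, 24 of 76 leaders had none (31.6%). All leaders were read as unbroken genome sequence, so ATG triplets inside any intron of a compared leader were counted. For the spliced mRNAs, the medians and means of the compared sets may therefore be too high, and the shares without an ATG too low.

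IST2 had 1 ATG, 62 nt before its start codon. That triplet opened a frame of 11 codons which closed 26 nt before the start codon and was out of frame with the coding region. Of the 50 mRNAs nearest to it in leader length (226 to 268 nt), 30 had no ATG (60%) and the mean was 0.96. For the other 5, leaders without an ATG were the common case at their length: 70% of the nearest 50 for TCB3, 78% for TPO1, 82% for WSC2, 96% for EGT2 and 98% for CPS1.

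**Figure D3:**
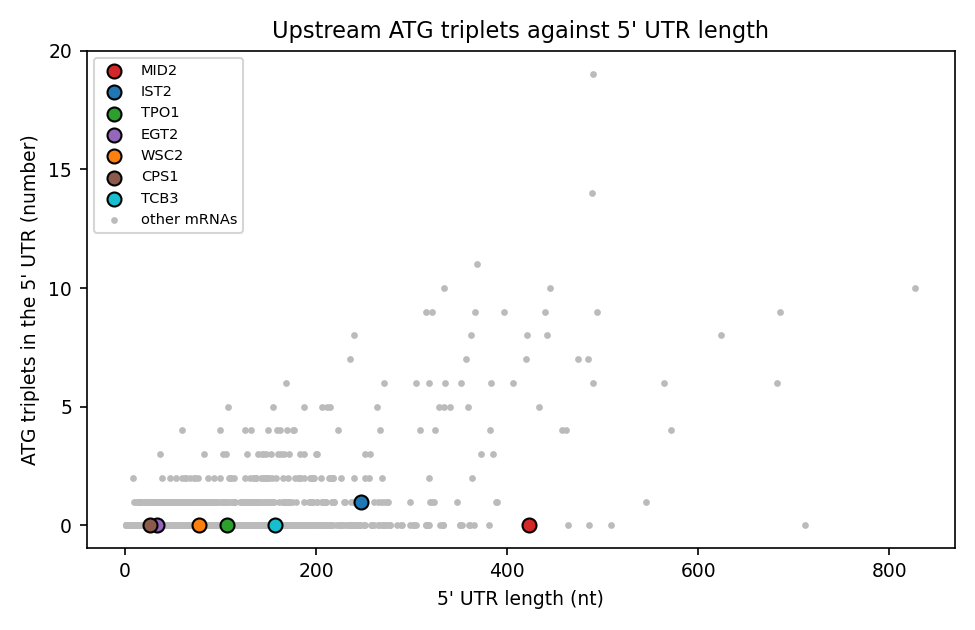
Number of ATG triplets in the 5' UTR (vertical) against 5' UTR length (horizontal, nt), with the 7 members in colour and other mRNAs in grey. Leaders were read as unbroken genome sequence, with any intron included. MID2 lies on the line of 0 at 423 nt, where 14 of the 50 leaders nearest in length hold none. IST2 is the single member above 0.

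The leaders were poor in G and C, between 24.2% in EGT2 and 34.4% in IST2. EGT2's leader was 57.6% A and WSC2's 46.8% T, whereas MID2's was 30.7% A and 36.2% T. Neither of the consensus splice sequences GTATGT and TACTAAC was found on the sense strand of any of the 7 leaders. The heptamer was found once in the UTRs of the 7, in MID2's leader 115 nt before the start codon, and 18% of the 50 mRNAs nearest in leader length held at least 1.

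In the coding sequences the heptamer was found in 5 of the 8, against 48.1% of the 2999 coding sequences that could be read, so its presence alone did not set these mRNAs far from the rest. IST2 held 5 copies, CPS1 and TCB3 3 each, WSC2 2 and SRL1 1. MID2, TPO1 and EGT2 held none. Per length, the 8 sequences together held 0.806 copies per kb on the sense strand and 0.345 on the antisense strand, and all coding sequences 0.626 and 0.283 per kb. The sense strand thus held more copies than the antisense strand in both.

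The copies of IST2, CPS1, TCB3 and SRL1 all began past the middle of the coding sequence. Heptamer positions over all coding sequences are not given here. Of the 200 coding sequences nearest to IST2 in length, 6% held at least 5 copies, and of those nearest to CPS1, 11% held at least 3. The shares were 24% for WSC2, 34.5% for SRL1 and 35% for TCB3. The 5 copies in IST2 began between nt 1645 and 2578 of 2841, and the pair at nt 2420 and 2429, both printed above, lay close together. CPS1's copies began at nt 1306, 1511 and 1718 of 1731, and TCB3's at nt 3293, 3548 and 4345 of 4638. WSC2's copies, at nt 111 and 457 of 1512, were in the first part of the sequence, and the copy in SRL1 began at nt 386 of 633.

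The CNN runs differed widely among the 8. A run of at least 10 CNN triplets, in any phase, was present in 3 of the 8, WSC2, MID2 and IST2, against 4.3% of all 2999 coding sequences. The longest run was 24 triplets in WSC2 (nt 539 to 610), 14 in MID2 (nt 485 to 526) and 12 in IST2 (nt 2680 to 2715). It was 7 triplets in SRL1, EGT2 and CPS1, and 5 in TPO1 and TCB3. The median was 7 over the 8 and 4 over all coding sequences.

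WSC2's run ranked 8 of 2999, with 99.8% of others shorter (99.5 to 99.9), MID2's ranked 41 (98.5% shorter) and IST2's ranked 65 (97.6% shorter). Among the 200 coding sequences nearest in length the share with a shorter CNN run was 99.5% for WSC2, 98% for MID2 and 94.75% for IST2. For the others it ranged from 36.5% in TCB3 to 93.5% in SRL1. The runs differed in phase. In WSC2 and MID2 the repeated C, shown in capitals above, is the second base of the codon, and the codons of the run read serine or threonine in 24 of 24 cases in WSC2 and in 10 of 14 in MID2. A codon with C as its second base can encode only serine, proline, threonine or alanine, so the phase limits the counts of WSC2 and MID2. In IST2 the repeated C is the first base of the codon. No codon that begins with C encodes serine or threonine, so the count of 0 of 12 in IST2 follows from the phase alone. In the reading frame alone, with C as the first base, the count of members with a run of at least 10 triplets was 1, IST2.

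Relatives of both sensors had runs of the same phase. The longest CNN run was 30 triplets in SLG1, 71 in WSC3, 16 in WSC4 and, in the MID2 relative MTL1, 23, each with C as the second base of the codon. The protein identity of Wsc3 to Wsc2 was 50.5%, of Wsc4 to Wsc2 34.3% and of Mtl1 to Mid2 51.9%. Among the other relatives the run was 4 triplets in TCB1 and TCB2, 5 in TPO2, SVS1 and YOL153C (57.2% identical to Cps1), and 6 in TPO3 and TPO4.

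All 8 coding sequences held a run of at least 10 NNY triplets, as did 56.2% of all coding sequences. The longest was 36 triplets in MID2 (rank 12 of 2999, 99.6% shorter), 31 in WSC2 (rank 19, 99.4% shorter) and 17 in IST2 (rank 153, 93.8% shorter). The other 5 ranged from 12 triplets in CPS1 to 15 in SRL1 and TCB3, and the median was 15 over the 8 and 10 over all. Most of these coding sequences are long, and among the 200 nearest in coding length the share with a shorter NNY run was 99% for MID2 and WSC2, 94.75% for SRL1, 87.25% for IST2, 76.25% for TPO1, 75.5% for TCB3, 59% for EGT2 and 57.25% for CPS1. EGT2 and CPS1 thus lay near the middle for their length. In the reading frame alone, with the pyrimidine as the third base, the share shorter was 99.8% for WSC2 and 88.6% for MID2. The MID2 run is on the second codon base, and 28 of its 36 codons read serine or threonine. The WSC2 run is on the third codon base, where 29 of 31 did. In TPO1 none of the 14 codons of the longest NNY run did.

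**Figure D4:**
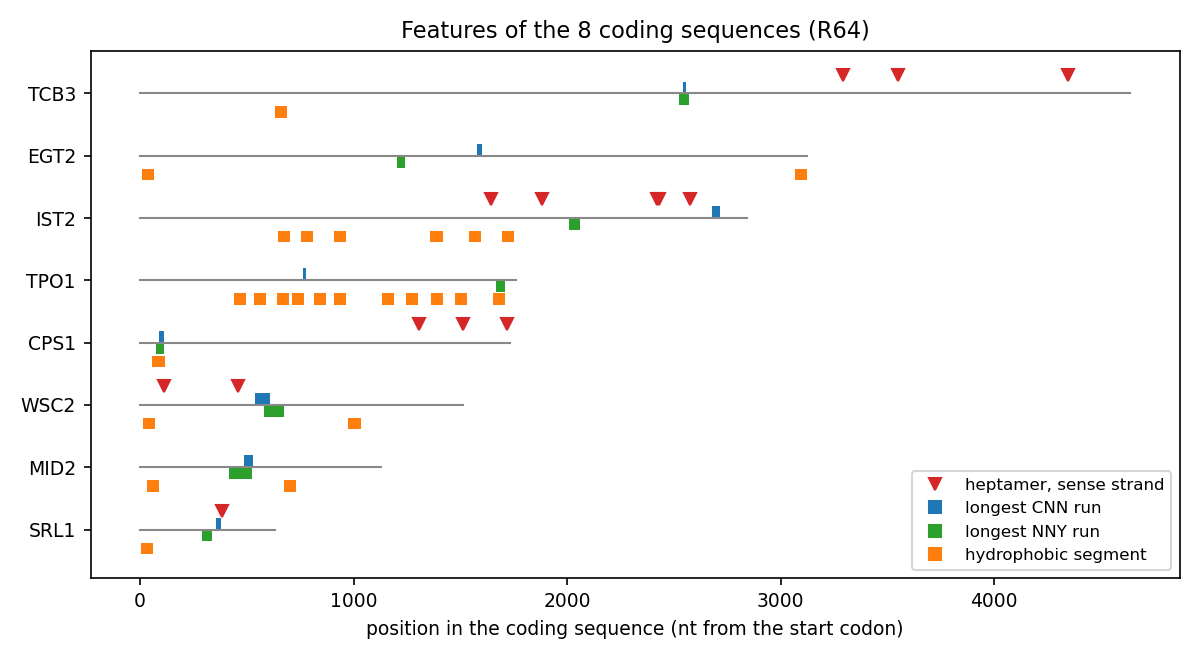
Coding sequences of the 8 mRNAs (horizontal axis, nt from the start codon) with heptamer matches on the sense strand as red triangles, the longest CNN run in blue, the longest NNY run in green and hydrophobic segments of the protein in orange, in order of coding length. The runs of MID2 and WSC2 lie between the hydrophobic segments of each. The heptamers of IST2, CPS1, TCB3 and SRL1 lie past the middle of the coding sequence.

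The proteins differed widely in serine and threonine. Serine and threonine made up 42.9% of Srl1, 40.4% of Mid2, 39.0% of Wsc2 and 37.8% of Egt2, which ranked 4, 14, 16 and 17 of 2999 proteins translated from R64. A share above 30% was found in these 4 of the 8, against 1% of all proteins. The shares were 18.2% in Ist2, 15.5% in Tcb3, 12.0% in Cps1 and 11.6% in Tpo1, and the median over all proteins was 13.3%. In the richest window of 100 residues the share was 89% in Wsc2, 75% in Mid2, 55% in Egt2, 54% in Srl1, 34% in Tcb3, 33% in Ist2, 29% in Tpo1 and 17% in Cps1. By that measure Tcb3, Ist2 and Tpo1 also lay high, with a lower share in 95.7%, 95.1% and 91.7% of other proteins. It takes the highest of all windows, of which long proteins have more, and it was not compared among proteins of similar length. Over the whole protein, 75.8%, 90.4% and 25.8% of other proteins had a lower share than Tcb3, Ist2 and Tpo1. Of the 4 proteins above 30%, 2 had a CNN run of at least 10 triplets, Wsc2 and Mid2, while Egt2 and Srl1 had runs of 7.

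The members were named as membrane and secreted proteins beforehand, so the hydropathy given here describes them and cannot check that label. A segment of 19 residues with a mean Kyte-Doolittle hydropathy of at least 1.6 was present in all 8 proteins, against 32.4% of all proteins. Tpo1 had 11 such segments and Ist2 6; both are known as multipass membrane proteins. Mid2 had one at residues 12 to 30 and one at 225 to 243, and Wsc2 at 5 to 23 and 326 to 344. Egt2 had one at residues 4 to 22 and one at its very C-terminus, 1023 to 1041, the place of a glycosylphosphatidylinositol attachment signal. Srl1 had a single segment at residues 2 to 20, Cps1 at 20 to 38 and Tcb3 at 211 to 229. Several of these segments lay close to the threshold. With a threshold of 1.8 the single segment of Tcb3 (mean 1.73) was lost, as were the N-terminal segments of Mid2 (1.73) and Wsc2 (1.63) and the C-terminal segment of Egt2 (1.65).

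On the chromosome, 2 of the 8 transcripts overlapped a listed neighbouring mRNA, against 16.8% of all mRNAs. Both overlaps were at 3' ends that face a convergent neighbour. EGT2 and PFA3, a palmitoyltransferase gene, shared 109 nt (chromosome 14, 27183 to 27291), and CPS1 and TOH1 shared 83 nt (chromosome 10, 99520 to 99602). In neither pair did the overlap reach a coding region of either gene. Of all 771 convergent pairs of listed mRNAs 29.1% overlapped, against 1.17% of 768 divergent and 1.66% of 1445 tandem pairs.

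The other 14 sides had gaps. MID2 began 427 nt after the end of CHS5, a gene of transport from the Golgi to the bud neck, with the unlisted JIP3 between them in R64. JIP3 lies on the opposite strand and overlaps the MID2 coding region by 371 nt there. On its 3' side lay the ribosomal protein gene RPS25B, 3489 nt away, with a tRNA and the snoRNA genes SNR61, SNR55 and SNR57 between. WSC2 lay 914 nt from POP3 and 1051 nt from MRPL10. IST2 lay 463 nt from the divergent RFC5, a replication factor C subunit gene, and 884 nt from YBR085C-A. TCB3 lay 396 nt from RPL6A and 3889 nt from DAK1, with COG8 and a tRNA between. TPO1 lay 889 nt from FRA1 and 564 nt from ISA1.

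EGT2's 5' side faced PEX6 at 1293 nt, with MDJ2 between, and CPS1's faced RFA3 at 1177 nt. SRL1's transcript, which has no listed UTR, lay 817 nt from ENV9 and 4173 nt from TUM1, with APC5 and CLP1 between. Set beside all pairs of the same orientation, the gap to RFC5 stood lowest among these 14, with a smaller gap in 34.3% of divergent pairs. The gap to TUM1 stood highest, with a smaller gap in 80.8% of convergent pairs. For the tandem neighbours CHS5 and RPL6A the shares were 42.1% and 40.7%.

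Other genes of the same processes gave the 8 a context. Some stand on more than one of the lists that follow. Of 14 other mRNAs reported as She2 cargo, 10 are listed. The 9 with UTRs had a median 5' UTR of 73 nt, from 29 nt in DNM1, a dynamin-related GTPase of mitochondrial fission, to 197 nt in EAR1, and 5 of the 9 were above the median of all mRNAs. Their median 3' UTR was 179 nt, from 51 nt in LCB1, a subunit of serine palmitoyltransferase, to 804 nt in KSS1, a MAP kinase, with 6 of 9 above the median. CLB2 is listed without UTRs, and the UTRs of ASH1, BRO1, MTL1 and MET4 were not analysed here.

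The UTRs of the transport machinery lay on both sides of the medians of all mRNAs. Of 9 genes 7 are listed, with a median 5' UTR of 48 nt, from 31 nt in TPM1, a tropomyosin, to 183 nt in SCP160, an RNA-binding protein of the KH family. The median 3' UTR was 82 nt, from 35 nt in MYO4 to 174 nt in HEK2. At each end 3 of the 7 were above the median of all mRNAs. SHE2 itself had 51 nt and 111 nt.

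Few genes of the cell wall integrity pathway could be compared. Of 13 such genes 4 are listed, with 5' UTRs from 80 nt in the MAP kinase gene SLT2 to 216 nt in the GTPase gene RHO1 (median 148.5 nt) and 3' UTRs from 126 nt in SLT2 to 283 nt in SLG1 (median 188.5 nt). All 4 were above the median of all mRNAs at both ends. MID2's leader was longer than that of all 4, and WSC2's was shorter than that of all 4.

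Of 9 daughter-specific cell separation genes 8 are listed, with a median 5' UTR of 196.5 nt, from 47 nt in DSE4, a glucanase, to 359 nt in SUN4, a wall protein. The median 3' UTR was 172 nt, from 66 nt in DSE3 to 289 nt in DSE1. At each end 6 of the 8 were above the median of all mRNAs. EGT2, which belongs to the same daughter-specific programme, had a leader of 33 nt, shorter than that of any of these 8.

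Of 11 relatives of the 8 only 6 are listed, and these 6 had UTRs longer than the median of all mRNAs at both ends, with medians of 184 and 187 nt. The UTRs of MTL1, WSC3, WSC4, TPO2 and YOL153C were not analysed here. The shortest were SVS1 at the 5' end (64 nt) and TPO4 at the 3' end (114 nt), and the longest TPO3 (315 nt) and SLG1 (283 nt). Of 4 other tether genes 3 are listed, with 5' UTRs from 27 nt in SCS2, the gene of an endoplasmic reticulum anchor protein, to 187 nt in TCB2, and 3' UTRs from 99 to 179 nt in the same pair. The 7 vacuolar hydrolases had a median 5' UTR of 71 nt (6 with one), from 26 nt in ATG42, the same as CPS1, to 256 nt in the protease gene PRB1. Their median 3' UTR was 108 nt, from 50 nt in APE3, an aminopeptidase, to 206 nt in PRB1, with 4 of 7 above the median of all mRNAs.

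**Figure D5:**
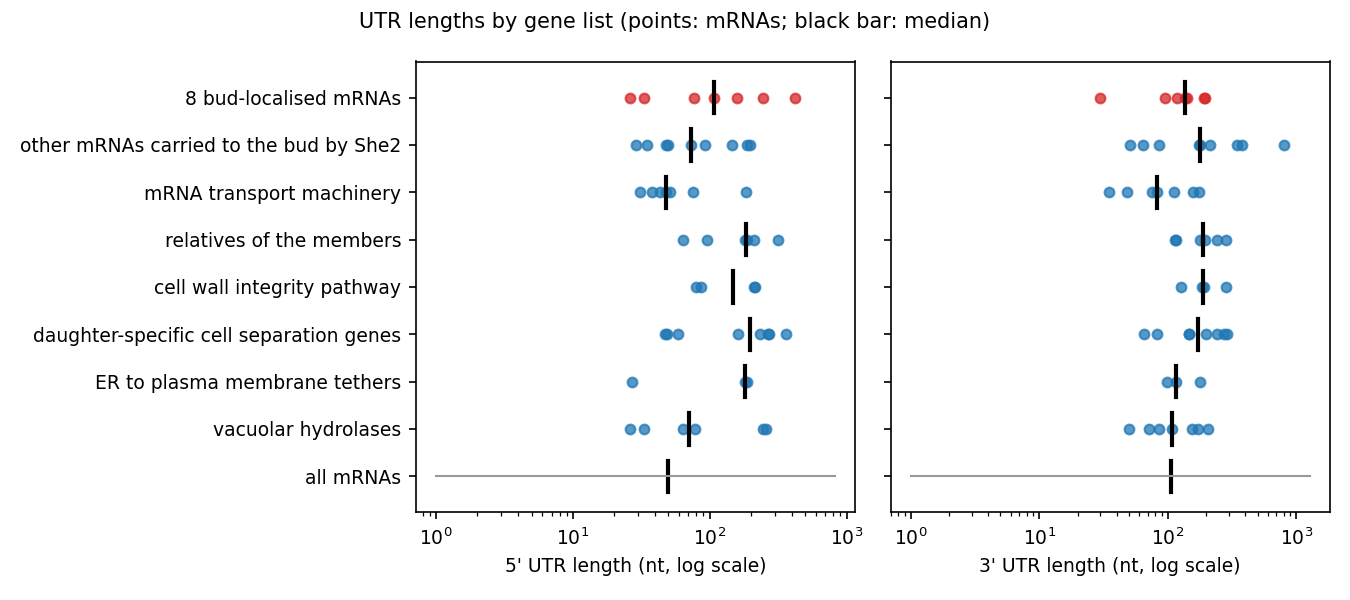
UTR lengths by gene list (rows), for the 5' UTR on the left and the 3' UTR on the right (nt, log scales), with 1 point per mRNA, a black bar at each median and, for all mRNAs, a line from the shortest to the longest. The 8 bud-localised mRNAs (red, 7 with UTRs) span 26 to 423 nt at the 5' end, wider than the 29 to 197 nt of the other She2 cargo.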

How the data were processed

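The deposited file used here is a genome annotation. Its values are positions, not measurements of RNA: per the design text, the authors deposited, for each transcript, exon and UTR, its gene and its 1-based position on a chromosome, and the other unit of this file is a nucleotide coordinate. The genome build, the aligner and the way UTR ends were set were not given in the sources used here. Per the design text, the authors merged 7 SOLiD lanes as log ratios; those were not analysed here, so depth and precision are unknown.

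Lengths were end minus start plus 1. The percent of other mRNAs with a shorter feature splits ties evenly and carries a 95% Wilson interval, which covers counting over genes only. Neighbours were the nearest listed mRNAs. Sequence came from the R64 reference (RefSeq) by gene name at R64's own coordinates, since 14.2% of the 2999 matched coding regions had the same positions in both; coding length was equal for 2979 of them and for 8 of the 8, of which 3 had the same positions. UTR sequence is the R64 flank of the listed length. Both strands of the coding sequences were searched for the heptamer, and the sense strand alone for the rest, the heptamer in UTRs included. Proteins were translated from R64 and aligned globally (BLOSUM 62, gap open 11, extend 1). Software was Python 3.11.15, Biopython 1.88, NumPy 2.4.6 and matplotlib 3.10.9. The searches for CNN runs, heptamers and hydrophobic segments were tested on simulated sequences with planted features. The percent shorter and the reverse complement were tested on set examples, and the other measures were not tested.

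The members and lists were chosen with earlier results of these data known. The genes named are all 8 members, their neighbours and relatives, and the longest and shortest UTR of each list; SHE2, the leaders without an ATG, the unlisted genes between neighbours and unmeasured list members are named outside that rule. The run threshold of 10 CNN triplets, the 30% serine and threonine threshold, the upper quartiles, the 300 nt limit, the comparison of UTRs within an mRNA, the search of UTRs for the heptamer and for splice sequences, and the sets nearest in length were chosen after seeing the data. The NNY threshold follows published use.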

Additional observations from a re-analysis of the deposited data

How the results depend on the processing

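Of 32 alternative counts of members, 31 stayed within 1.5 times the value reported and 1 did not. With CNN runs counted in the reading frame only, 1 member in place of 3 had a run of at least 10 triplets, because the C of the MID2 and WSC2 runs is the second base of the codon. Percentiles of single coding lengths were not varied. Of 84 alternative percentiles of single UTR lengths, 71 stayed within the 95% interval of the value reported. Of 32 for CNN and NNY runs, 0 did, but the size of the change differed. Among the 200 nearest in coding length, the share of shorter CNN runs was 98% for MID2 and 99.5% for WSC2, but 36.5% for TCB3. The values reported, in any phase, were 98.5%, 99.8% and 67.0%. In the reading frame only, which is a different measure, the share was 16.6% for MID2, 51.6% for WSC2 and 99.0% for IST2. The value reported for IST2 was 97.6%. Ranked among the 200 mRNAs nearest in coding length, 3 rather than 4 leaders exceeded the upper quartile. The alternatives were other sets of mRNAs, a minimum UTR length, other treatment of ties, other neighbours, motif, frame, hydropathy threshold and window, and leaders 10 nt shorter or longer. Leaving out libraries was not run. No paired analysis was possible because every result describes the annotation and none a library. Each length is a single annotated value without an error.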
